A study of Arabidopsis thaliana with 15 samples.

Results

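OCT1, AT2G40460, AT2G28780, AT4G39675 and AT1G19530 were the 5 named genes whose transcripts stood lowest in Arabidopsis roots after 2 h of NAA, a synthetic auxin, relative to roots sampled before treatment. They were chosen on that difference, so it describes the choice and is not a finding. Each was measured by 1 probe set, which makes 5 of the 22746 probe sets tested and 5 of the 13350 genes that could be named. Just inside the limit lay OCT1, at -3.28 log2 units, and AT2G40460, at -3.10. Just outside lay AT3G20015 (-3.09), AT1G33055 (-3.02) and AT2G21560 (-2.88). Probe sets without a named gene lay among them, so that 15 probe sets were lower by over 3 log2 units and 7 of these had a named gene.

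The arrays were Affymetrix ATH1 arrays hybridised with RNA from roots of wild-type Col-0 seedlings, 3 days after germination, all of them germinated on 10 µM NPA. The treated groups had then spent 2 h or 6 h on 10 µM NAA, or 2 h or 6 h on 50 µM naxillin, and the last group was sampled before treatment. Each group had 3 arrays from independent experiments, and each sample pooled 500 root sections from which meristems had been left out. A transfer to medium lacking both compounds was not analysed here, so transfer and elapsed time cannot be told apart from the compound in a difference from the roots before treatment. In such bulk samples, fewer cells of a type and less RNA per cell cannot be told apart. Values ran from 2.99 to 14.83 on the log2 scale, array medians from 7.09 to 7.18, and correlations between replicates over probe sets from 0.984 to 0.996. The number of arrays, 3 per group, limits the precision of every value.

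NPA blocks the polar transport of auxin and keeps lateral roots from starting. NAA, an auxin that enters cells readily, overrides that block and acts through nuclear auxin receptors that release transcription factors from repression. Naxillin induces lateral roots without acting as a general auxin. OCT1 encodes an organic cation transporter of the plasma membrane that carries carnitine, and Arabidopsis plants without it branch their roots differently. The NPF family, whose list written for this work holds AT2G40460, comprises proton-coupled transporters of nitrate, peptides and, for some members, plant hormones. AT1G19530 stands in a list of genes known to rise when plant cells run short of oxygen. The annotation used here gives AT2G40460, AT2G28780, AT4G39675 and AT1G19530 a locus tag and no other name, and no function is assigned to AT2G28780 or AT4G39675 here.

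In TAIR10.1 coordinates of the RefSeq annotation, OCT1 (AT1G73220) lies at chr1:27538190-27540235 and AT1G19530 on the same chromosome at chr1:6763765-6765049. AT2G40460 lies at chr2:16896907-16901670 and AT2G28780 at chr2:12339851-12343443. AT4G39675 lies at chr4:18413775-18414240 and is the shortest of them, with 466 bases. All 5 are annotated as protein-coding genes. Values below are log2 expression values, listed for replicates 1, 2 and 3.

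OCT1 had 6.37, 5.67 and 5.14 after 2 h of NAA and 4.51, 4.75 and 4.43 after 6 h of NAA, against 8.44, 9.50 and 9.09 before treatment. It had 9.69, 8.49 and 9.49 after 2 h of naxillin and 9.29, 9.66 and 8.89 after 6 h of naxillin. All 6 NAA arrays lay below every other array, and both naxillin groups overlapped the roots before treatment. Set against the roots before treatment, the mean differed by -3.28 at NAA 2 h, -4.44 at NAA 6 h, 0.21 at naxillin 2 h and 0.27 at naxillin 6 h (SE 0.36 each). The level at NAA 6 h, 4.57 ± 0.17 (SD, n = 3), lay below the lower quartile of the arrays, 4.70 to 4.81. Its difference is therefore one of RMA values and no measured fold.

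AT2G40460, of the transporter list, had 5.92, 6.56 and 5.22 after 2 h of NAA and 4.52, 4.77 and 4.79 after 6 h of NAA, against 8.86, 9.29 and 8.87 before treatment. It had 9.03, 8.91 and 8.71 after 2 h of naxillin and 8.63, 9.19 and 8.53 after 6 h. The NAA arrays lay below all others, as for OCT1. Both naxillin groups overlapped the roots before treatment, with 3 of the 6 naxillin arrays below all arrays before treatment. The differences from the roots before treatment were -3.10 at NAA 2 h, -4.31 at NAA 6 h, -0.12 at naxillin 2 h and -0.22 at naxillin 6 h (SE 0.26 each). The NAA 6 h mean, 4.69 ± 0.15 (SD, n = 3), again lay at the lower quartile.

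AT2G28780 had 6.39, 5.70 and 6.69 after 2 h of NAA and 6.75, 6.78 and 6.98 after 6 h of NAA, against 9.96, 9.90 and 9.99 before treatment. It had 8.44, 7.34 and 8.08 after 2 h of naxillin and 9.05, 9.07 and 8.31 after 6 h. Every treated array lay below every array before treatment, and every naxillin array lay above every NAA array. The naxillin groups overlapped each other. The differences from the roots before treatment were -3.69 at NAA 2 h, -3.11 at NAA 6 h, -1.99 at naxillin 2 h and -1.14 at naxillin 6 h (SE 0.28 each). The highest mean stood before treatment, 9.95 ± 0.04 (SD, n = 3), where the replicates lay closest together.

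AT4G39675 had 8.79, 8.05 and 6.12 after 2 h of NAA and 6.62, 8.02 and 5.81 after 6 h of NAA, against 11.36, 11.83 and 11.12 before treatment. It had 10.53, 8.84 and 7.72 after 2 h of naxillin and 10.40, 11.53 and 8.14 after 6 h. The arrays of both NAA groups and of naxillin 2 h lay below those before treatment, while naxillin 6 h overlapped them in replicate 2. The differences from the roots before treatment were -3.78 at NAA 2 h, -4.62 at NAA 6 h, -2.40 at naxillin 2 h and -1.41 at naxillin 6 h (SE 0.90 each). With 1 array left out, the last ran from -2.17, without replicate 2 of naxillin 6 h, to -0.47, without its replicate 3. Neighbouring groups overlapped all along the order of the means.

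AT1G19530, of the low-oxygen list, had 6.30, 6.02 and 4.46 after 2 h of NAA and 7.07, 7.17 and 5.35 after 6 h of NAA, against 8.68, 9.61 and 8.42 before treatment. It had 7.99, 6.23 and 5.81 after 2 h of naxillin and 8.63, 10.33 and 5.91 after 6 h. Both NAA groups and naxillin 2 h lay below the roots before treatment on every array, and naxillin 6 h ran from below to above them. The differences from the roots before treatment were -3.31 at NAA 2 h, -2.37 at NAA 6 h, -2.23 at naxillin 2 h and -0.61 at naxillin 6 h (SE 0.93 each). Without replicate 3 of naxillin 6 h the last became 0.58, so 1 array decided its direction.

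**Figure D1:**
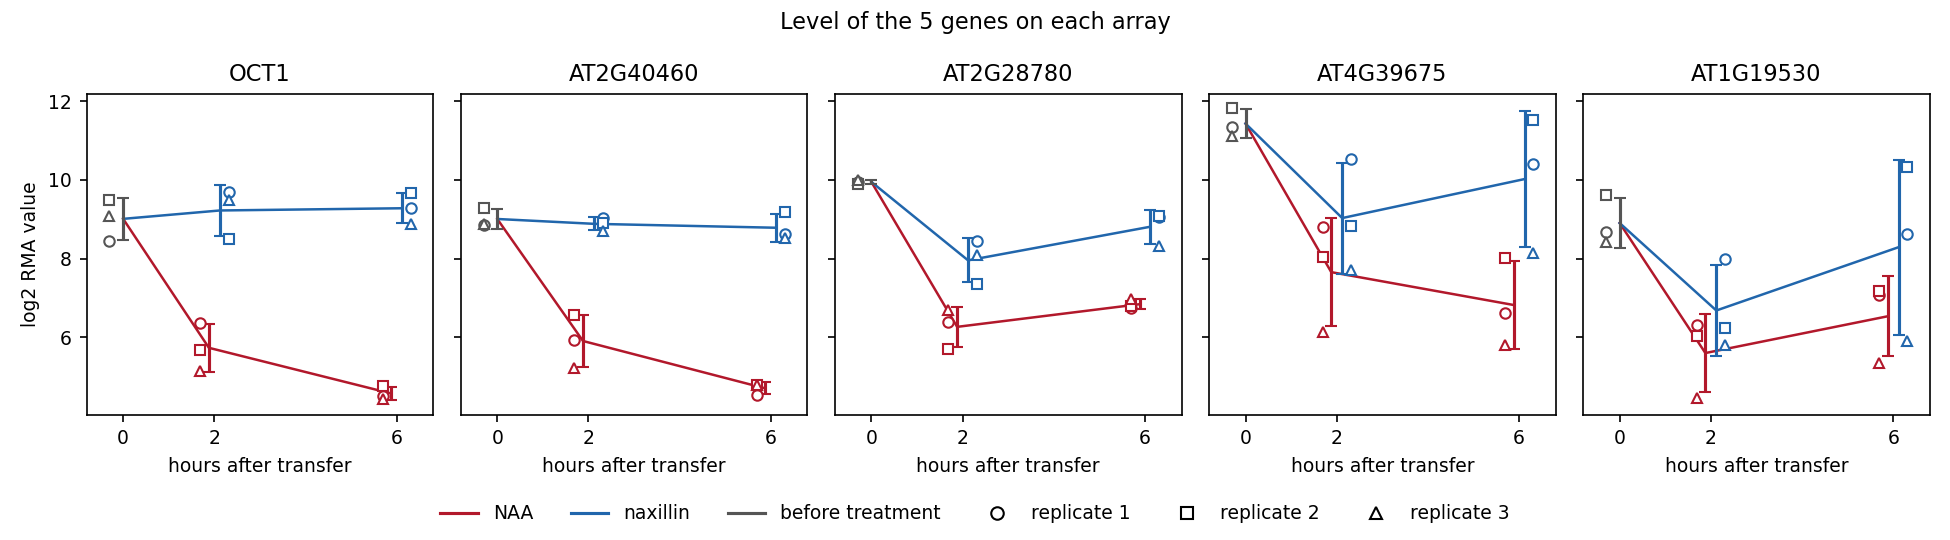
Log2 expression value of each of the 5 genes on every array, by compound and hours of treatment, with array values as markers by replicate number, lines through the group means and bars of 1 SD (n = 3). OCT1 and AT2G40460 stay near their level before treatment with naxillin, while AT4G39675 and AT1G19530 have replicate 3 lowest in every group.

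All 5 genes had every NAA 2 h array below every array before treatment, as had 22.4% of all probe sets; 10.5% of all were called higher and 15.3% lower in that contrast, which chose the genes. At NAA 6 h all 5 again lay lower on every array, against 33.6% of all probe sets, of which 22.8% were called higher and 29.4% lower. At naxillin 2 h this held for AT2G28780, AT4G39675 and AT1G19530, against 17.9% of all, with 4.40% called higher and 6.16% lower. At naxillin 6 h it held for AT2G28780 alone, against 11.4% of all, with 0.580% called higher and 0.382% lower. These contrasts share the 3 arrays before treatment, which helped to choose the genes, so no test is given for them. Medians of the 5 differences were -3.31 at NAA 2 h, -4.31 at NAA 6 h, -1.99 at naxillin 2 h and -0.61 at naxillin 6 h, each beside -0.03 over all probe sets.

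AT4G39675 had the lowest difference of all 22746 probe sets at naxillin 2 h. AT1G19530 ranked 3 and AT2G28780 ranked 9 there, while AT2G40460 ranked 7226 and OCT1 ranked 19675. At naxillin 6 h the ranks were 11 for AT4G39675, 24 for AT2G28780, 224 for AT1G19530, 3274 for AT2G40460 and 21326 for OCT1. At NAA 6 h all 5 stood between rank 34, held by AT4G39675, and rank 362, held by AT1G19530. Ranks are of the fall from the shared arrays before treatment, carry no test and take no account of the spread between replicates. That spread was among the largest of all probe sets for AT4G39675 and AT1G19530. With 1 array left out, the naxillin 2 h difference ran from -3.15 to -1.75 for AT4G39675 and from -2.88 to -1.79 for AT1G19530.

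**Figure D2:**
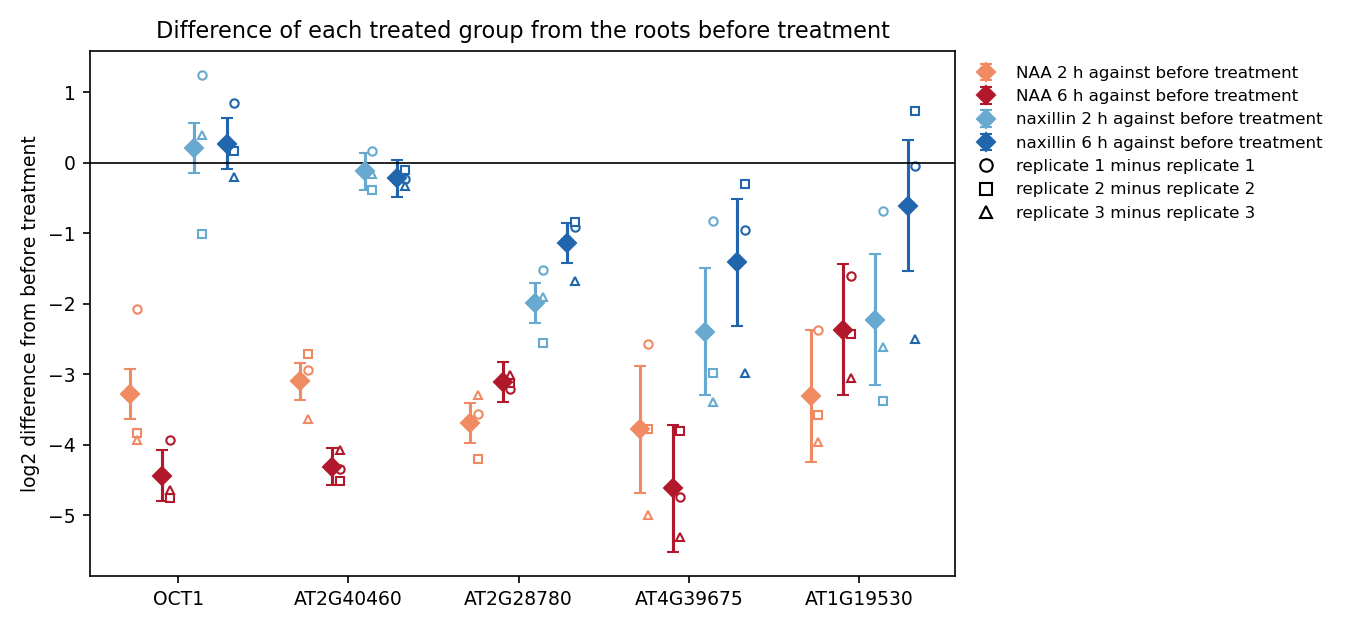
Log2 difference of each treated group from the roots before treatment, for the 5 genes: diamonds with bars are the fitted difference ± SE, and circles, squares and triangles are the differences of arrays with replicate numbers 1, 2 and 3. OCT1 and AT2G40460 lie near 0 with naxillin and below -2 with NAA. The fitted differences of AT2G28780, AT4G39675 and AT1G19530 lie below 0 in all 4 treated groups. Replicate 2 of AT1G19530 at naxillin 6 h lies above 0.

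The difference of means between naxillin 6 h and NAA 6 h used no array that chose the genes. The spread in its test came from all 15 arrays, those included. In that test 4 of the 5 were called higher with naxillin by limma at an adjusted p under 0.05. Of all probe sets, 27.2% were called higher and 23.5% lower. The same 4 were higher on every naxillin array than on every NAA array, against 30.7% of all probe sets. OCT1 differed by 4.72 (SE 0.36, adjusted p = 8.97e-08 by limma) and AT2G40460 by 4.09 (SE 0.26, adjusted p = 2.31e-08 by limma). Both differences rest on NAA 6 h values near the lower quartile. AT4G39675 differed by 3.21 (SE 0.90, adjusted p = 0.00792 by limma), higher in 3 of 3 replicates. AT2G28780 differed by 1.97 (SE 0.28, adjusted p = 3.7e-05 by limma). The doses of the compounds differ, so this sets 50 µM naxillin against 10 µM NAA.

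AT1G19530 did not pass the test in that comparison, with a difference of 1.76 (SE 0.93, 95% interval -0.23 to 3.75, adjusted p = 0.137 by limma). It was higher in 3 of 3 replicates, by 1.56, 3.16 and 0.56, but the groups overlapped. Replicate numbers paired the arrays of these groups by the check of their deviations, and with the replicate as a block the adjusted p was 0.0237 by limma. Without replicate 3 of naxillin 6 h the difference was 2.95 (adjusted p = 0.00482 by limma), and without its replicate 2 it was 0.74 (adjusted p = 0.547 by limma).

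Between 6 h and 2 h of naxillin, 0 of the 5 genes were called by limma, and 1 had an unadjusted p under 0.05. By adjusted p, 0.813% of all probe sets were called higher at 6 h and 1.47% lower. The share with an unadjusted p under 0.05 was not counted over all probe sets. That 1 was AT2G28780, higher at 6 h by 0.85 (SE 0.28, 95% interval 0.25 to 1.46, adjusted p = 0.152 by limma) and in 3 of 3 replicates. Without replicate 2 of naxillin 2 h it was 0.54. AT1G19530 was higher by 1.62 (95% interval -0.38 to 3.61, adjusted p = 0.478 by limma), with 0.63, 4.11 and 0.11 in the replicates. Replicate 2 therefore carried most of that difference. AT4G39675 was higher by 0.99 (95% interval -0.94 to 2.92), with 0.24 when replicate 2 of naxillin 6 h was left out and 1.93 when its replicate 3 was. OCT1 differed by 0.06 (95% interval -0.70 to 0.82) and AT2G40460 by -0.10 (95% interval -0.67 to 0.47), and a change within those intervals could not be told from 0. This comparison and the one with NAA share the naxillin 6 h arrays.

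The genes differed in how far replicates lay apart. The SD pooled over the groups, with 10 degrees of freedom, was 1.32 for AT1G19530 and 1.28 for AT4G39675, against a median of 0.15 over all probe sets. Only 1 probe set had a larger SD than AT1G19530 and 2 a larger SD than AT4G39675. OCT1 had 0.50, AT2G28780 0.39 and AT2G40460 0.37, with 386, 915 and 1162 probe sets larger. Replicate 3 had the lowest value of AT4G39675 and of AT1G19530 in 5 of 5 groups, on average 1.21 below the group mean for each gene. OCT1 and AT2G40460 had it lowest in 3 of 5 groups and AT2G28780 in 1 of 5.

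The main axis of the deviations from group means held 45.1% of their variance over all probe sets. Replicate 3 was lowest on this axis too in every group. It stood at -0.330 for NAA 2 h, -0.141 for NAA 6 h, -0.298 for naxillin 2 h, -0.524 for naxillin 6 h and -0.162 before treatment. A low replicate 3 was thus not particular to AT4G39675 and AT1G19530, and the share of all probe sets with it lowest was not counted. AT1G19530 followed that axis with r = 0.96 and AT4G39675 with r = 0.94 over the 15 arrays, OCT1 with 0.68, AT2G40460 with 0.66 and AT2G28780 with 0.30. The median size of r over all probe sets was 0.43, and 5.57% exceeded 0.9. The deviations were not scaled, so probe sets of large spread, such as AT1G19530 and AT4G39675, weighed most in the axis. Its sign was set to follow AT1G19530. A high r of these genes was therefore partly built in. These correlations are descriptions over arrays that share groups and, within a group, the removed mean. The part of this axis in the results was not tested.

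**Figure D3:**
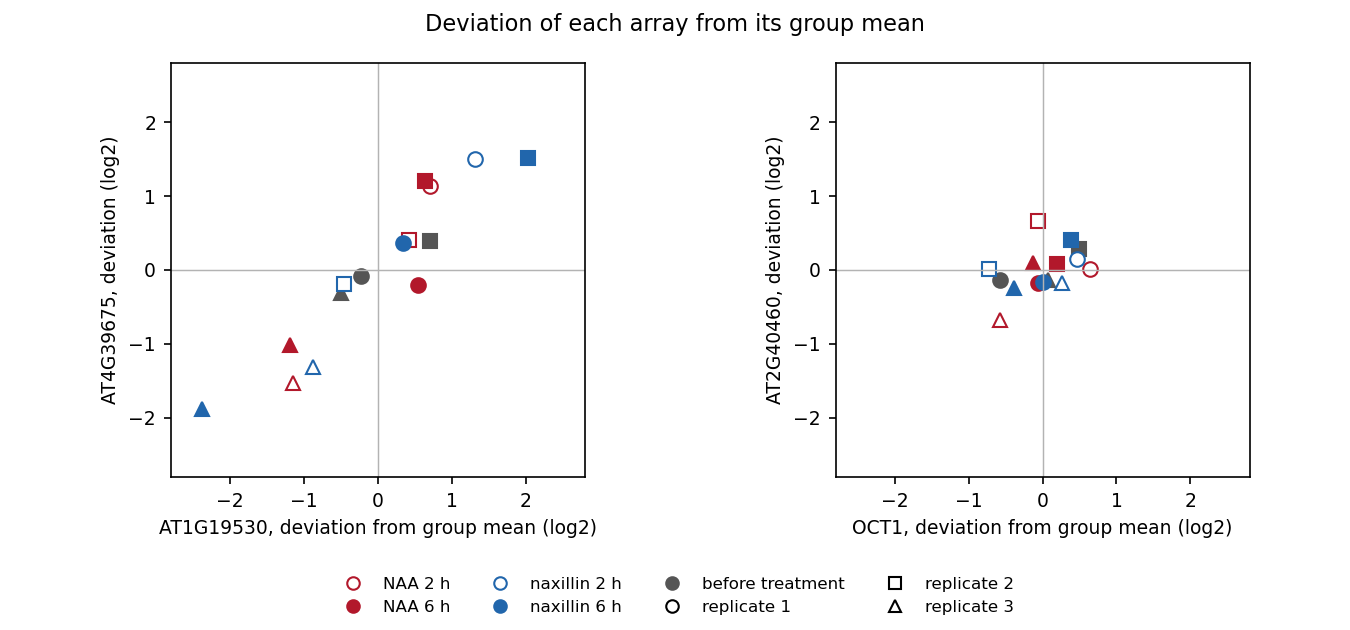
Deviation of each of the 15 arrays from its group mean, in log2 units, with AT4G39675 against AT1G19530 on the left and AT2G40460 against OCT1 on the right, where colour and fill give the group and the marker shape the replicate number. On the left the triangles of replicate 3 lie below 0 on both axes in all 5 groups (r = 0.94), and on the right the arrays lie closer to 0 (r = 0.46).

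Over the 15 arrays, OCT1 and AT2G40460 correlated at r = 0.98, and at 0.46 once group means were removed. AT4G39675 and AT1G19530 correlated at 0.89, and at 0.94 without the group means. AT2G28780 and AT2G40460 had 0.78 with the group means and -0.29 without them. The points share groups, so the pooled values carry the selection of these genes as well.

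Among the other named probe sets, those most like OCT1 over the 15 arrays were AT2G05590 (r = 0.976), AT3G53950 (0.975) and AT5G23460 (0.975). Those most like AT2G40460 were AT2G16980 (0.987), AT2G21560 (0.986) and AT4G32860 (0.984). AT2G28780 was followed most closely by AT5G01020 (0.961), AT1G69360 (0.953) and AT2G15580 (0.950). AT4G39675 had AT3G07310 (0.985), AT4G00700 (0.983) and AT4G03030 (0.979) nearest, and AT1G19530 had AT1G54740 (0.966), MCCA (0.965) and AT1G33055 (0.962). MCCA encodes a subunit of methylcrotonyl-CoA carboxylase, an enzyme of leucine breakdown in mitochondria.

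Of the 6 organic cation transporters listed, OCT4 and OCT5 were measured beside OCT1. For the lists here, measured means matched to a probe set naming 1 gene, so listed genes not counted may still be on the array. OCT5 was called higher at NAA 2 h by 0.73 (SE 0.13, adjusted p = 0.00115 by limma) and lower at NAA 6 h by 0.60 (a difference of -0.60, adjusted p = 0.00133 by limma). It was also called higher at naxillin 2 h, by 0.87, and at naxillin 6 h relative to NAA 6 h, by 1.03 (adjusted p = 1.24e-05 by limma). OCT4 was called in 0 of the 6 comparisons by limma and had an unadjusted p under 0.05 in 1, NAA 6 h, at -0.68 (adjusted p = 0.0538 by limma). Replicate numbers paired the arrays of that comparison, and with the replicate as a block both OCT4 and OCT5, 2 of 2, were called there. Without the block, 22.8% of all probe sets were called higher there and 29.4% lower. The share with the block was not counted there. For naxillin 6 h against NAA 6 h the block raised the calls over all probe sets from 11511 to 12146. Neither relative was called at naxillin 6 h against before treatment or against naxillin 2 h. In each, OCT5 alone of the 2 had an unadjusted p under 0.05, at 0.43 and -0.44. OCT4 had -0.20 in both.

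Of 52 NPF genes listed, 32 had a named probe set beside AT2G40460. At NAA 2 h, 4 were called higher and 9 lower, beside 10.5% and 15.3% of all probe sets, with a median difference of -0.05, beside -0.03 over all. AT1G59740 was higher by 2.71 (SE 0.28), AT3G45680 lower with -2.04 (SE 0.17), AT2G26690 with -1.52 (SE 0.26) and AT1G22540 with -1.32 (SE 0.14). At NAA 6 h, 4 were called higher and 11 lower, beside 22.8% and 29.4% of all probe sets. AT3G01350 had -3.62 (SE 0.17), AT1G59740 had 3.23, AT5G14940 had -2.89 (SE 0.17) and AT3G45680 had -2.23 (SE 0.17).

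With naxillin at 2 h, 4 NPF genes were called higher and 1 lower, beside 4.40% and 6.16% of all probe sets, and AT1G72140 led with 1.69 (SE 0.27). GTR1, a transporter of glucosinolates, had 0.90, AT3G53960 had 0.68 and AT3G45710 had -0.66. Of 24 other settings, 1 lost the call of GTR1, 11 that of AT3G53960 and 7 that of AT3G45710. At naxillin 6 h 1 was called higher, beside 0.580% of all probe sets, and 0.382% of all were called lower. This was AT1G72140 at 1.24 (adjusted p = 0.0469 by limma), whose call was lost under 16 of 24 other settings. Between the naxillin times 1 was called higher, beside 0.813% of all probe sets, and 1.47% of all were called lower. This was AT3G45710 at 0.72 (adjusted p = 0.0443 by limma), lost under 14 of 24. Between naxillin 6 h and NAA 6 h, 11 were called higher and 4 lower, beside 27.2% and 23.5% of all probe sets. AT3G01350 had 3.84, AT5G14940 had 2.46, AT3G45680 had 2.20 and AT1G59740 had -2.97. The median of the NPF genes there was 0.18, beside 0.02 over all probe sets.

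Of 48 low-oxygen genes listed, 22 had a named probe set beside AT1G19530. At NAA 2 h, 8 were called higher and 6 lower, beside 10.5% and 15.3% of all probe sets, with a median of 0.06, beside -0.03 over all. Without replicate 3 of NAA 2 h, 9 were called in all. AT1G33055 was lower at -3.02 (SE 0.64), AT4G27450 at -2.25 (SE 0.78, adjusted p = 0.0477 by limma) and AT5G42200 at -2.24 (SE 0.51). AT5G27760 was higher by 1.54 (SE 0.13). The call of AT4G27450 was lost under 14 of 24 other settings. On the arrays AT1G33055 had 7.39, 7.16 and 5.99 at NAA 2 h, against 9.92, 10.27 and 9.39 before treatment, so its replicate 3 was lowest too.

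At NAA 6 h, 5 low-oxygen genes were called higher and 6 lower, a share near the 22.8% and 29.4% of all probe sets. AT1G33055 led at -2.54, with AT1G74940 at -1.88, AT4G10270 at 1.72 and AT5G42200 at -1.54. The call of AT5G42200 was lost under 2 of 24 other settings. At naxillin 2 h, 3 were called each way, beside 4.40% and 6.16% of all probe sets. AT1G33055 had -2.13, AT5G27760 had 1.04, CML38 had 0.97 and AT4G17670 had 0.92. The call was lost under 16 of 24 other settings for AT1G33055, 7 of 23 for CML38 and 5 of 24 for AT4G17670. At naxillin 6 h 0 were called by limma, beside 0.580% of all probe sets called higher and 0.382% lower. There 5 had an unadjusted p under 0.05, a share not counted over all probe sets. The smallest p belonged to AT4G17670, at 1.07 (adjusted p = 0.0528 by limma), and AT4G10270, at 0.79 (adjusted p = 0.101 by limma). Between the naxillin times 2 were called higher at 6 h and 1 lower, beside 0.813% and 1.47% of all probe sets. AT4G10270 was higher by 1.24 (adjusted p = 0.00949 by limma), a call kept under all 24 other settings. The call of AT3G10040, higher by 0.79, was lost under 7 of 23 other settings. That of AT5G27760, at -0.68, was lost under 4 of 24. Against NAA 6 h, naxillin 6 h had 5 higher and 4 lower, beside 27.2% and 23.5% of all probe sets, with AT1G33055 at 1.90, AT1G74940 at 1.54, PDC2 at 1.43 and AT5G66985 at 1.08. PDC2 encodes a pyruvate decarboxylase, the enzyme that starts ethanolic fermentation.

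**Figure D4:**
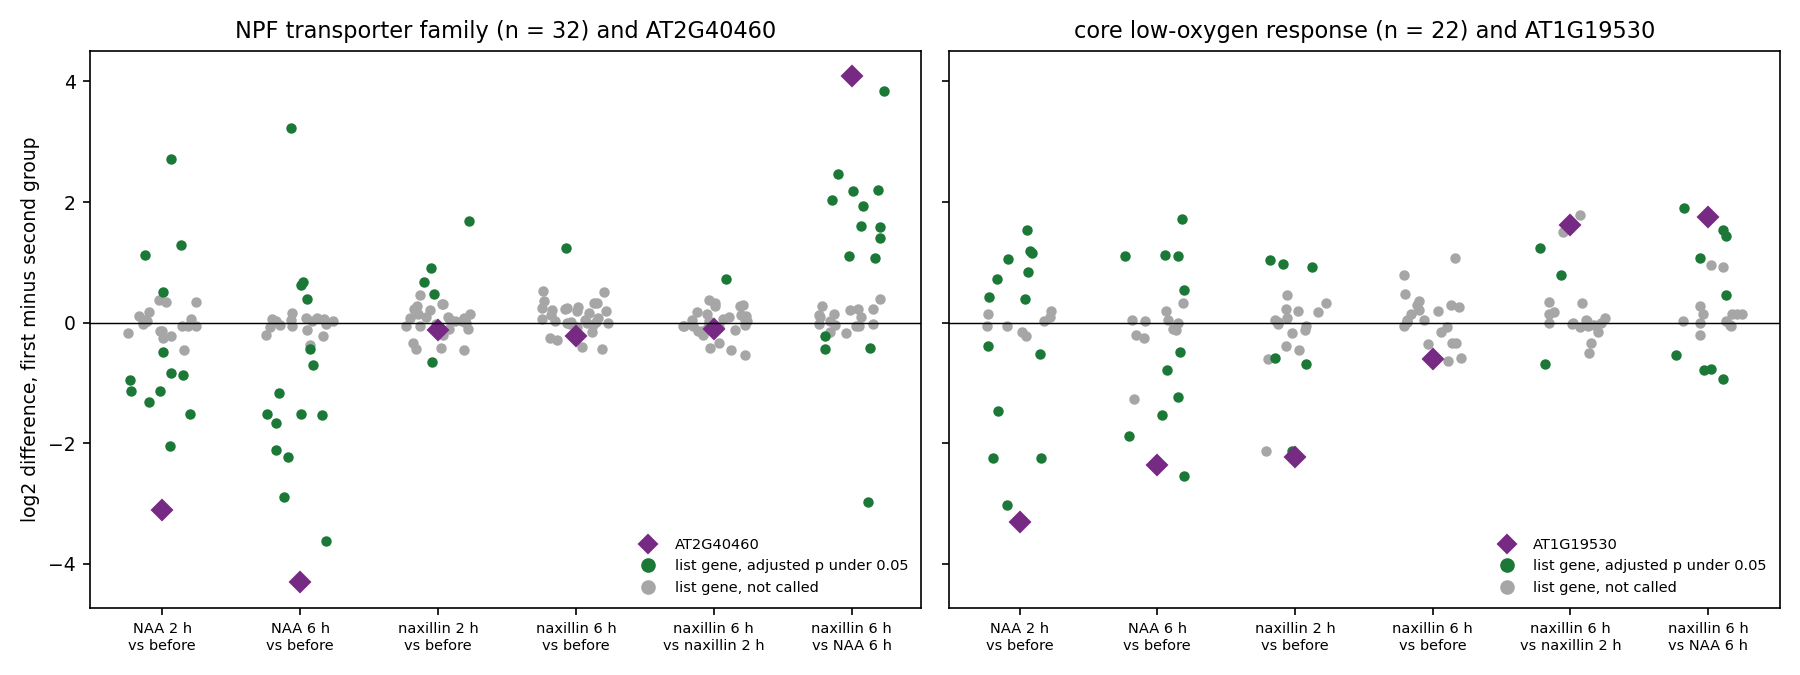
Log2 difference (first minus second group) of each measured NPF gene (left, 32 genes and AT2G40460) and low-oxygen gene (right, 22 genes and AT1G19530) in the 6 comparisons, 1 point per gene, green where the adjusted p was under 0.05 by limma and grey where not, with a purple diamond for AT2G40460 or AT1G19530. NPF genes and low-oxygen genes spread to both sides of 0 with NAA; the diamonds at NAA 2 h show values that chose those genes, and the other contrasts with the roots before treatment share arrays with that choice.

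The tissue could be checked on few markers. Of the endodermis, stele and root cap or meristem lists 0 genes had a named probe set. Of 8 root hair genes, 2 had a named probe set. EXPA7 had means of 7.89 at NAA 2 h, 5.73 at NAA 6 h, 8.44 at naxillin 2 h and 7.68 at naxillin 6 h, against 6.87 before treatment. EXPA18 had means of 8.03 at NAA 2 h, 6.08 at NAA 6 h, 8.67 at naxillin 2 h and 7.45 at naxillin 6 h, against 7.23 before treatment. The means of both lay below those before treatment at NAA 6 h and above them in the other treated groups. At naxillin 6 h the arrays overlapped. There EXPA7 ran from 7.14 to 8.05, against 6.47 to 7.20 before treatment, and EXPA18 from 6.88 to 7.81, against 7.09 to 7.47. Of 10 photosynthesis genes of the shoot, 2 had a named probe set. LHCB4.2, an antenna protein, had means of 6.08 at NAA 2 h, 5.27 at NAA 6 h, 7.15 at naxillin 2 h and 7.67 at naxillin 6 h, against 8.37 before treatment. RCA, which activates Rubisco, had 10.50, 9.08, 10.52 and 10.66 in the same treated groups, against 11.08 before treatment. The group means of both stand in the order of those of AT4G39675, whose neighbouring groups overlapped. For RCA, naxillin 2 h (10.52, SD 0.30) and NAA 2 h (10.50, SD 0.13) overlapped as well. Any part of cell content in the results was not tested.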

How the data were processed

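Values were deposited on the log2 scale, 1 per probe set of the Affymetrix ATH1 array, and came from RMA in affy 1.36.0 per the submitters' processing notes. RMA corrects background, normalises by quantiles and summarises each probe set. Of 22810 probe sets, 64 controls were left out. The platform annotation named 1 gene for 13513 probe sets, several for 503 and none for 8730; 13436 matched the RefSeq annotation of TAIR10.1.

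The limma package (3.58.1, R 4.3.3) fitted 1 mean per group over 15 arrays, which left 10 residual degrees of freedom, and gave two-sided moderated tests. Adjustment followed Benjamini and Hochberg across 22746 probe sets, and a call needed an adjusted p under 0.05. Shares of all probe sets called are by adjusted p, and none was counted by unadjusted p. SE is the moderated one and intervals are at 95%. The fit was tested on simulated data. Figures used Python 3.11.15 and matplotlib 3.10.9.

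The 5 genes and the lists were chosen with earlier results of these data known. Genes of a list were named by rule: up to 4 called genes of largest change per comparison, or, with none called, the 2 of smallest p; the value of OCT4 at NAA 6 h, outside that rule, was chosen after it was seen. The 3 probe sets of highest r over 15 arrays were named for each of the 5 genes, and the 3 largest falls that just missed the choice.

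Replicate numbers come from the labels. Deviations of same-numbered arrays correlated at over 0.1 in every pair for naxillin 6 h with NAA 6 h (0.29 to 0.31). They did so for NAA 6 h with before treatment, but not for naxillin 6 h with naxillin 2 h (-0.19 to 0.59). Over all groups, 23 of 30 same-numbered pairs exceeded 0.1, with a median of 0.22. Alternatives were a replicate block, the arrays of a contrast alone, another spread prior, array weights, other scalings, leaving out dim probe sets or each array and, added after seeing the data, leaving out replicate 3 of every group.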

Additional observations from a re-analysis of the deposited data

Results flagged for a closer look

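Naxillin and NAA at 6 h, with the same transfer and the same time, differed in a direct test for the genes below, by limma on all 15 arrays with n = 3 per group. Values are naxillin minus NAA on the log2 scale. Among the 5 genes, OCT1 had 4.72, AT2G40460 had 4.09, AT4G39675 had 3.21 and AT2G28780 had 1.97. Among the transporter relatives, AT3G01350 had 3.84, AT5G14940 had 2.46, AT3G45680 had 2.20, OCT5 had 1.03 and AT1G59740 had -2.97. Among the low-oxygen genes, AT1G33055 had 1.90, AT1G74940 had 1.54, PDC2 had 1.43 and AT5G66985 had 1.08. The list genes named here are only those of largest change, up to 4 per list. In all, 5 low-oxygen genes were called higher and 4 lower, and 11 NPF genes higher and 4 lower. Of all probe sets, 27.2% were called higher and 23.5% lower in that comparison. The call of AT1G33055 was lost without NAA 6 h replicate 3 and without naxillin 6 h replicate 1 or 2, with an adjusted p of up to 0.101 by limma. That of AT5G66985 was lost without replicate 3 of every group (adjusted p = 0.161 by limma). Whether an array of the 5 genes stood out from its group of 3 was not tested. Replicate 3 of naxillin 6 h deviated from its group mean by -2.38 for AT1G19530 and by -1.88 for AT4G39675.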

How the results depend on the processing

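OCT1, AT2G40460, AT2G28780 and AT4G39675 stayed called higher at naxillin 6 h than at NAA 6 h under all 24 alternatives; leaving out 1 array gave 4.52 to 4.91, 3.89 to 4.21, 1.84 to 2.22 and 2.45 to 4.15. AT1G19530 in that comparison became called with the replicate block (1.76, adjusted p = 0.0237 by limma), with array weights (1.84) and without replicate 3 of every group (2.36), and ran from 0.74 to 2.95 with 1 array left out. Between the naxillin times, array weights called 2 genes in place of 0, AT2G28780 (1.30) and AT1G19530 (2.17). The replicate block called none there. Deviations of these arrays correlated at 0.44 for replicate 1, -0.19 for replicate 2 and 0.59 for replicate 3. The cause of the calls with array weights was not tested.

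Differences from the roots before treatment that changed sign with 1 array left out were OCT1 at naxillin 2 h (-0.07 to 0.58) and 6 h (-0.01 to 0.52), AT2G40460 at naxillin 2 h (-0.20 to 0.02) and AT1G19530 at naxillin 6 h (-1.63 to 0.58). The last was 0.34 without replicate 3 of every group.

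Scaling on 27 poly-A spike-in probe sets moved the median of all probe sets to 0.21 for NAA 6 h, -0.13 between the naxillin times and -0.29 for naxillin 6 h against NAA 6 h. The 5 genes kept their direction except OCT1 between the naxillin times (-0.07). Calls for naxillin 6 h against NAA 6 h then split into 3652 higher and 12045 lower, beside 6177 and 5334, and those for NAA 6 h into 9973 and 4545, beside 5181 and 6677. Between the naxillin times they split into 79 and 874, beside 185 and 335, at NAA 2 h into 2844 and 2439, beside 2389 and 3469, at naxillin 2 h into 1144 and 776, beside 1001 and 1401, and at naxillin 6 h into 108 and 281, beside 132 and 87. Median centring gave 1154 and 797 at naxillin 2 h and 206 and 56 at naxillin 6 h, where a second quantile step gave 173 and 66. Calls between the naxillin times numbered 520, and 44 with their arrays alone, 1048 with the block, 4579 with array weights, 953 with the spike-ins, 53 without replicate 3 and 198 to 574 with 1 array left out.

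Counts of list genes moved as follows, given without the share of all probe sets under each setting. Organic cation transporters called at NAA 6 h were 2 with the block, the contrast's arrays alone, array weights, no dim probe sets or no replicate 3, and 1 to 2 with 1 array left out. They were 1 at naxillin 6 h with weights, 1 between the naxillin times with the block, weights or spike-ins, and 2 for naxillin 6 h against NAA 6 h with weights or no replicate 3 (1 to 2 with 1 array left out). NPF genes at naxillin 2 h were 2 without replicate 3 and 2 to 5 with 1 array left out. At naxillin 6 h they were 0 with the arrays alone, spike-ins or no replicate 3, 6 with weights and 0 to 1 with 1 array left out. Between the naxillin times they were 2 with the block or a second quantile step, 0 with the arrays alone or no replicate 3, 6 with weights and 0 to 3 with 1 array left out. Low-oxygen genes at NAA 2 h were 9 without replicate 3 and 9 to 14 with 1 array left out; at naxillin 2 h they were 3 and 2 to 7; at naxillin 6 h 1 with the block, a second quantile step, median centring or no dim probe sets, 4 with weights and 0 to 1 with 1 array left out. Between the naxillin times they were 1 with the arrays alone or no replicate 3, 8 with weights and 1 to 3 with 1 array left out. Levels near the lower quartile limit the size, not the direction, of the NAA 6 h differences of OCT1 and AT2G40460.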
